A study of Mus musculus with 4 samples.

Results

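The 40 genes described here encode integrin chains, the laminin and type IV collagen chains that make up epithelial basement membrane, the proteins that link these networks, and parts of the hemidesmosome. They were taken from a fixed list of names, found by gene name on a mouse expression array, and each was represented by its brightest probe out of 57 probes for the 40 genes. The array held 36163 genes and transcripts in all. RNA came from cells of the submandibular gland, a major salivary gland, of C57BL/6 mice aged 8 to 10 weeks, sorted freshly by flow cytometry into stem cells (2 arrays) and non-stem cell epithelia (2 arrays). No treatment or genetic change is given for either group. The sources used here do not give the antigens of the sort or say whether animals were pooled.

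Basement membrane is the thin matrix sheet on which epithelial cells rest. Laminin trimers, each of an alpha, a beta and a gamma chain, bind cells through integrins and dystroglycan, and a second network of type IV collagen is joined to the laminins by nidogens and perlecan. Integrins are pairs of an alpha and a beta chain, and the pair made by Itga6 and Itgb4 is the core of the hemidesmosome, which ties keratin filaments of basal cells to the matrix. In salivary glands this matrix surrounds acini and ducts, and basal duct cells and myoepithelial cells lie directly on it.

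Most of the matrix genes that could be measured were higher in stem cells. Most of the integrin genes did not pass the test, and neither did most of all genes tested. Of 18 laminin, type IV collagen and linker genes, 10 were higher in stem cells, 1 was lower, 4 did not pass the threshold and 3 were well above background on none of the arrays. Of 16 integrin genes, 3 were higher, 1 was lower, 7 did not pass and 5 were too dim to test. The share of tested genes called in either direction was 36.4% for integrins and 73.3% for matrix genes, against 31.0% of all genes tested. Of the 5 hemidesmosome and anchoring genes, 3 were higher and 1 was lower, and Dag1, which encodes dystroglycan, did not pass. In all, 16 members were higher and 3 lower, with a threshold of 0.05 on the adjusted p of limma, where 14.2% of all genes tested were called higher and 16.8% lower (31.0% in either direction). The test was run where at least 2 of the 4 arrays measured the probe well above background. A gene that reached this only through 1 group was let in by its signal there, so the rule favoured a difference in that direction. It did not force one, because the lowest signal counted as above background differed by array. This touches Itga1, Nid1 and Col4a4.

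Values are the log2 of the processed signal minus the 75th percentile of the array, so 0 is the level of that percentile, and a difference of 1 between groups is a doubling. They compare a gene with itself between groups and do not rank genes. With 2 arrays per group, and nothing in the labels to say that replicates were separate animals or sorts, a p-value here reflects the spread among arrays alone, and that spread may be technical. In sorted bulk RNA, fewer cells of a type and less RNA per cell cannot be told apart.

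Stem cell arrays had a 75th percentile of 30.4 and 43.3 signal units and non-stem arrays 74.8 and 63.0, and between 34.6% and 41.3% of probes were well above background. The 4 arrays share 1 slide and 1 scan, so no batch could be set apart. Spike-in controls, added in fixed amounts, stood 2.25 higher in stem cells on the log2 scale after the percentile shift (median of 7, range 1.81 to 2.47). The 2 dimmest and the brightest of the 10 were left out of that median. Their differences, listed by size and not by brightness, were 0.64, 1.24 and 2.52. Of the 16 rises, 4 exceed 2.25, and among these Lamb1 (2.29) and Lamb3 (2.37) lie within 1.81 to 2.47. Of the marker lists, the 4 measured acinar genes were lower in stem cells, the 5 duct genes were higher, and 3 of 8 tested basal and myoepithelial genes were higher, namely Krt5, Krt14 and Krt17. Single marker genes given with values were chosen after these were seen. With normexp background correction 3 basal genes were higher and 2 lower, and 3 of the 5 duct genes were higher. The smooth muscle genes Acta2 and Tagln of myoepithelial cells had log2 differences of -0.11 and 0.04 and did not pass.

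**Figure D1:**
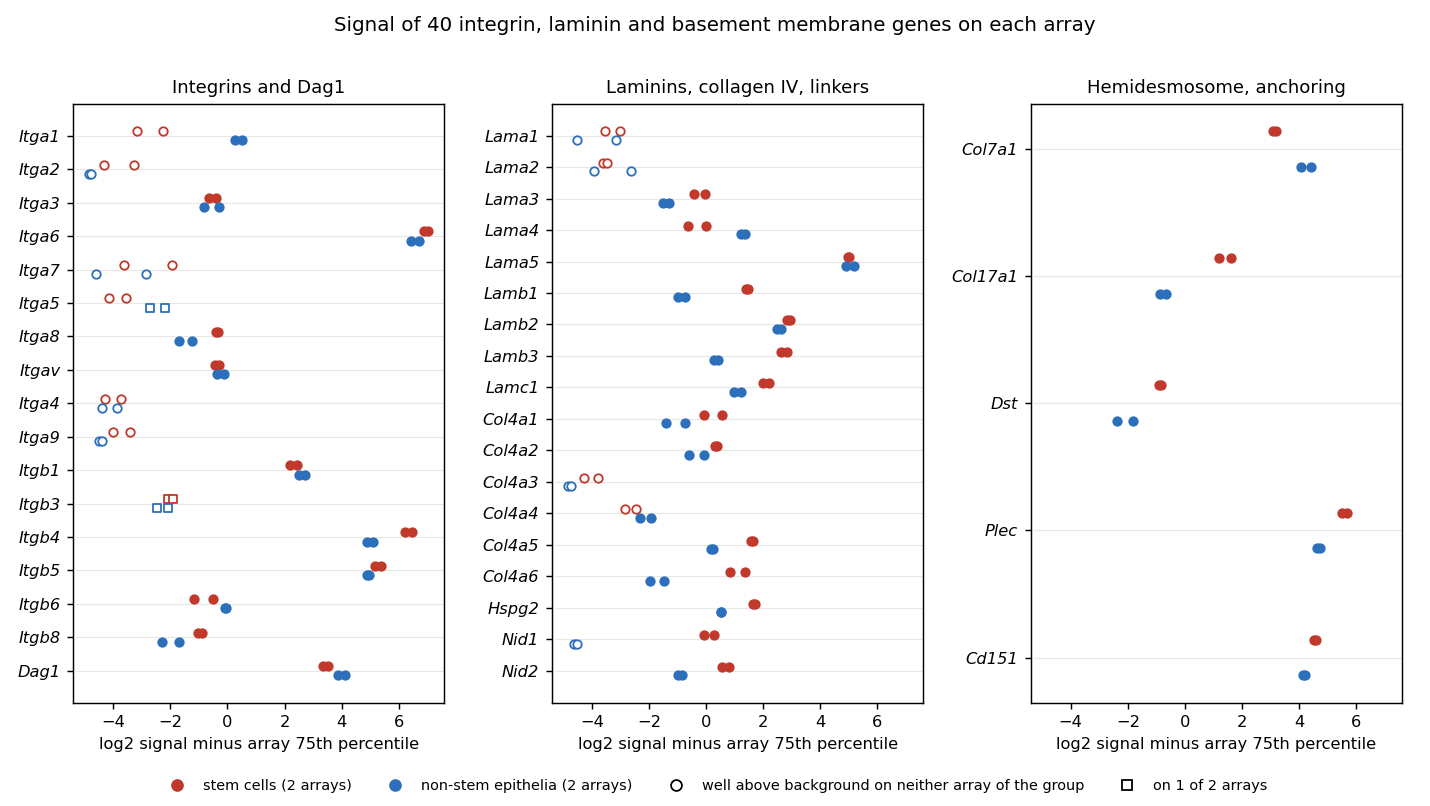
Each point is 1 array, on the horizontal axis as log2 signal minus the 75th percentile of that array, with stem cells in red and non-stem epithelia in blue, and open symbols mark groups that were well above background on neither array (circles) or on 1 of 2 (squares). Lamb1, Lamb3, Col4a6, Nid1, Nid2 and Col17a1 show red points well to the right of blue ones, while Itga1, Lama4 and Col7a1 show the reverse.

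Promoter sequences are shown for the 3 members with the largest rises and the member with the largest fall that the RefSeq promoter table (GRCm38.p6) lists, since these carry the extremes of the comparison. The 250 bases before the transcript start are printed 5′ to 3′ on the gene's strand, and capitals mark matches, on either strand, to the GC box (GGGCGG), the CCAAT box (written as its name), the TATA box (TATAAA) or the AP-1 site (TGANTCA). The regions are chr13:13437352-13437601 (plus strand) for Nid1, chrX:141474077-141474326 (minus) for Col4a6, chr1:193301744-193301993 (plus) for Lamb3 and chr13:115101965-115102214 (minus) for Itga1.
Nid1: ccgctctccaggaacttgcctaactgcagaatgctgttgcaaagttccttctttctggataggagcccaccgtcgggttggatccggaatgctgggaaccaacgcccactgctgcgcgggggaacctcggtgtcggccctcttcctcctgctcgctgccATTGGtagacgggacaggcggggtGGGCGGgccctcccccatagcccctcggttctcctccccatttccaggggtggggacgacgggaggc
Col4a6: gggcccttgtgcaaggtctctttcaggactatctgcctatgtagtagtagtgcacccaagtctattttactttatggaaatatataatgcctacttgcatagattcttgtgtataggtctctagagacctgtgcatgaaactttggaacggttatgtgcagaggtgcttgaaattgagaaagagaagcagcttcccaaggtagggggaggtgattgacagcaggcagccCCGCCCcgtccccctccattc
Lamb3: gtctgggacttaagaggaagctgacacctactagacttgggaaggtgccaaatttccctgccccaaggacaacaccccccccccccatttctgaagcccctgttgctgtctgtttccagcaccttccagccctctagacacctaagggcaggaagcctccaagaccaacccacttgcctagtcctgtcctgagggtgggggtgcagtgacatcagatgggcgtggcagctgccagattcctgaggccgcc
Itga1: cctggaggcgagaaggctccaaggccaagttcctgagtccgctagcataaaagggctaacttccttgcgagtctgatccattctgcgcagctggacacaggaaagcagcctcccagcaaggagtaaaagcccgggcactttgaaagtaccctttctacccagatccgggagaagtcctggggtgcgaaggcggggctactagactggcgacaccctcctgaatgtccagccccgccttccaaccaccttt

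Nid1 held 1 GC box and 1 CCAAT match, Col4a6 held 1 GC box, and the Lamb3 and Itga1 windows held none of the 4 motifs. Each gene had 1 window, at its most upstream listed start. Over the 300 bases that run to 50 bases past the start, 20 of 29 members with a window (69.0%) held a GC box, against 35.9% of 27025 genes. Among the 11 members called higher that had a window, 7 held a GC box, so it did not set them apart from the other members. The CCAAT motif was found in 9 of 29 members, against 38.0% of genes, and the AP-1 motif in 1 of 29, against 7.92%. TATAAA was found in 1 of 29 members, Col17a1, against 14.2% of genes. A match is a description of the letters in this window and not a measured binding site. A GC box read on the other strand can share letters with a CCAAT match.

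Type IV collagen genes lie head to head in pairs, and their shared starts are shown because the members of a pair were compared here. The transcripts of Col4a1 and Col4a2 start 21 bases apart on opposite strands, and their promoter windows have 78 bases in common at chr8:11312777-11312854 (GRCm38.p6), printed on the plus strand, which is that of Col4a2, with the GC box in capitals.
Col4a1 and Col4a2: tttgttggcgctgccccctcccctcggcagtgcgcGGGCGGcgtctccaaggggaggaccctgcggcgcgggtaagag
The starts of Col4a6 and Col4a5 lie 1343 bases apart on the X chromosome, also on opposite strands.

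Among the collagen pairs, Col4a1, whose product forms the common network with that of Col4a2, gave -0.07 and 0.54 in stem cells against -1.40 and -0.73 in non-stem epithelia. The stem cell arrays lay above the non-stem arrays, a log2 difference of 1.30 ± 0.31 (SE, n = 2 arrays per group, limma adjusted p = 0.028). Its call was lost without non-stem replicate 1 (adjusted p = 0.14) and without non-stem replicate 2 (adjusted p = 0.064). Col4a2 gave 0.29 and 0.39 in stem cells against -0.61 and -0.08 in non-stem epithelia, and its difference of 0.68 ± 0.22 did not pass (adjusted p = 0.065, and 0.047 with the replicate number as a block).

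Col4a5, an X-linked chain of epithelial basement membranes, gave 1.56 and 1.65 in stem cells against 0.25 and 0.16 in non-stem epithelia. It was 2.63-fold higher in stem cells (log2 1.40 ± 0.15, adjusted p = 0.0027), with groups far apart relative to the spread within each. Col4a6, its partner gene, gave 0.85 and 1.36 against -1.49 and -1.95, which is 7.09-fold higher (2.83 ± 0.26, adjusted p = 0.0015). Its stem cell arrays lay above both non-stem arrays. Another probe of Col4a6, dimmer over all arrays and well above background on 3 arrays, gave a difference of -0.58. In non-stem epithelia this probe had the higher signals, at -1.08 and -0.97. The mean of both probes gave 1.12 (limma adjusted p = 0.027). Both the direction and the size of the rise thus rest on the brighter probe at mm9 X:137599990-137600049. Col4a3 was well above background on none of the arrays. Col4a4, which pairs with it, was above background in non-stem epithelia only, at -2.33 and -1.94, with signals of -2.45 and -2.84 in stem cells. Its difference of -0.51 did not pass (limma adjusted p = 0.14). On the array of stem cells replicate 1 the lowest signal counted as above background was -1.65, above both non-stem values. A lower level of Col4a4 in stem cells is therefore not shown.

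Laminin beta and gamma chains carried most of the laminin rises. Lamb3, the beta chain of the laminin that anchors epithelial cells at hemidesmosomes, gave 2.62 and 2.83 in stem cells against 0.42 and 0.27 in non-stem epithelia. It was 5.18-fold higher (2.37 ± 0.17, adjusted p = 0.00071), and its probe lies at mm9 1:195170009-195170068. Lama3, the alpha chain of the same trimer, gave -0.06 and -0.43 against -1.53 and -1.30, a rise of 1.17 ± 0.20 (adjusted p = 0.010) that did not pass without either non-stem array (adjusted p = 0.075 and 0.062).

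Lamb1, a beta chain of many laminins, gave 1.40 and 1.45 in stem cells against -1.0 and -0.73 in non-stem epithelia, and was 4.88-fold higher (2.29 ± 0.17, adjusted p = 0.00081). Lamc1, the gamma chain found in most laminins, gave 2.01 and 2.19 against 0.97 and 1.24, a rise of 0.99 ± 0.18 (adjusted p = 0.012), but did not pass without either non-stem array (adjusted p = 0.079 and 0.057) or with normexp (0.42, adjusted p = 0.054). Lamb2 gave 2.93 and 2.84 against 2.48 and 2.62 and did not pass (adjusted p = 0.16). The alpha chains split. Lama5, the alpha chain of mature epithelial basement membrane, had values of 5.01 and 4.97 against 5.16 and 4.91, and the groups overlapped. With normexp Lama5 was called lower (-0.58, adjusted p = 0.019). Lama4, an alpha chain known from vessels, muscle and nerve, gave -0.62 and -0.02 in stem cells against 1.22 and 1.38 in non-stem epithelia, and fell by 1.62 ± 0.24 (adjusted p = 0.0066). The call of Lama4 was lost without either non-stem array (adjusted p = 0.051 and 0.069). Lama1 and Lama2 were well above background on none of the arrays.

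The 3 linker genes were all called higher in stem cells. Nid1, which encodes nidogen, the bridge between laminin and type IV collagen, gave -0.07 and 0.28 in stem cells and was not well above background in non-stem epithelia, where its signals were -4.64 and -4.54. Stem cells exceeded non-stem epithelia at least 6.14-fold, a bound set by the lowest signal counted as above background, and the adjusted p of 0.00018 tests the signals and not that bound. Its probe lies at mm9 13:13604435-13604494, and the other 2 probes of Nid1 were well above background on none of the arrays. Nid2, the second nidogen, gave 0.55 and 0.81 against -0.97 and -0.86, and was 3.03-fold higher (1.60 ± 0.17, adjusted p = 0.0025). Hspg2, which encodes perlecan, gave 1.63 and 1.69 against 0.53 and 0.53, and rose by 1.13 ± 0.15 (adjusted p = 0.0048, and 0.051 without non-stem replicate 2).

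**Figure D2:**
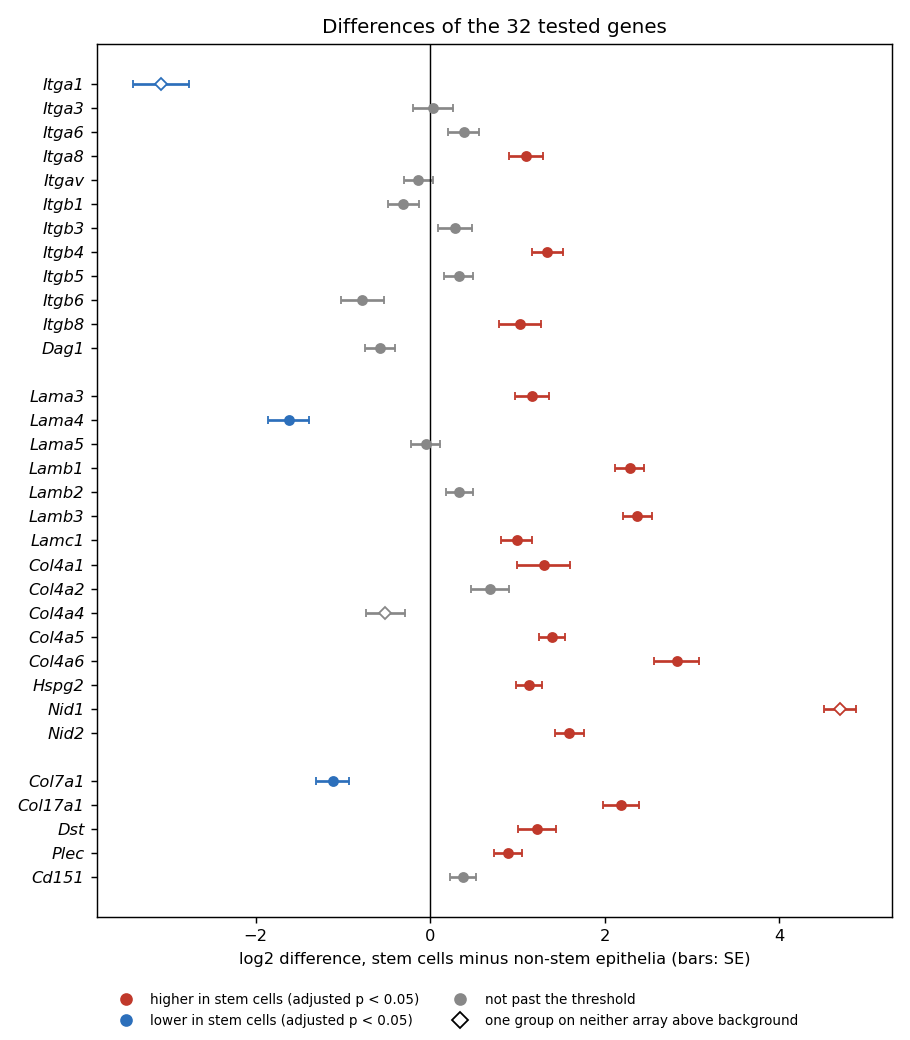
The log2 difference of each of the 32 tested members is plotted with its SE on the horizontal axis, grouped as integrins and Dag1, then matrix chains, then hemidesmosome and anchoring genes, and open diamonds mark genes with 1 group well above background on neither array. Red points, 16 in all, passed the threshold as higher in stem cells, and the 3 blue points, Itga1, Lama4 and Col7a1, as lower.

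Of the 10 integrin alpha chains 5 were tested, and of these 1 was higher, 1 was lower and 3 did not pass. That is 40% of those tested, against 31.0% of all genes tested. Itga1, a receptor chain for collagens including type IV, gave 0.26 and 0.50 in non-stem epithelia and was not well above background in stem cells, at -3.15 and -2.25. It was at least 5.04-fold lower in stem cells (adjusted p = 0.0022 for the signals). A second probe was also above background in non-stem epithelia only. Itga8, which pairs with Itgb1 and binds nephronectin and fibronectin, gave -0.40 and -0.33 in stem cells against -1.25 and -1.68 in non-stem epithelia. Its rise of 1.10 ± 0.20 (adjusted p = 0.012) did not pass without non-stem replicate 2 (adjusted p = 0.079).

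The laminin-binding alpha chains did not pass. Itga6, used widely as a surface marker of basal epithelial cells, gave 6.88 and 7.03 in stem cells against 6.71 and 6.42 in non-stem epithelia. The difference of 0.39 ± 0.18 had an adjusted p of 0.15. Itga6 passed with the intensity trend (limma adjusted p = 0.0059) and changed sign with normexp (-0.10). Itga3, the other main laminin-binding chain of epithelia, gave -0.40 and -0.65 against -0.82 and -0.30, and the groups overlapped. Itgav, the chain shared by several receptors for RGD sequences, also overlapped (-0.31 and -0.44 against -0.13 and -0.36). Itga2, Itga4, Itga7 and Itga9 were well above background on none of the arrays, and Itga5, the fibronectin receptor chain, was so on 1 non-stem array.

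Of the 6 beta chains, all tested, 2 were higher and 4 did not pass, so 33.3% were called, against 31.0% of all genes tested. Itgb4, the partner of Itga6 in hemidesmosomes, gave 6.22 and 6.48 in stem cells against 5.11 and 4.90 in non-stem epithelia. It was 2.54-fold higher (1.35 ± 0.18, adjusted p = 0.0049, and 0.054 without non-stem replicate 2). Itgb8, a chain known for activating latent TGF-beta, gave -0.88 and -1.03 against -1.68 and -2.29, a rise of 1.03 ± 0.24 (adjusted p = 0.027, and 0.12 without non-stem replicate 2). Itgb6, which also activates latent TGF-beta, gave -0.52 and -1.18 against -0.04 and -0.10, and its difference of -0.77 ± 0.25 did not pass (adjusted p = 0.065). It passed in the fit with the replicate number as a block (adjusted p = 0.033) and without stem cells replicate 1 (-1.11, adjusted p = 0.00057), and did not without stem cells replicate 2 (-0.44, adjusted p = 0.16).

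Itgb1, the partner of most alpha chains here, gave 2.17 and 2.42 in stem cells against 2.49 and 2.72 in non-stem epithelia, a difference of -0.31 ± 0.18 (adjusted p = 0.24). A second Itgb1 probe gave 0.63 (adjusted p = 0.043 over all probes), and the first was called lower with normexp (-0.56, adjusted p = 0.017), so its direction is unsettled. Itgb5 and Itgb3 had differences of 0.33 and 0.28 and did not pass, and Itgb3 was well above background on only 1 array of each group. Itgb5 passed with the intensity trend (limma adjusted p = 0.043) and changed sign with normexp (-0.14). Dag1, the laminin receptor outside the integrin family, gave 3.33 and 3.52 in stem cells against 3.89 and 4.11 in non-stem epithelia. Its difference of -0.57 ± 0.17 missed the threshold (adjusted p = 0.054), and passed with normexp (-0.94, adjusted p = 0.00097).

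Hemidesmosome genes mostly stood higher in stem cells. Col17a1, the transmembrane collagen of hemidesmosomes, gave 1.21 and 1.62 in stem cells against -0.65 and -0.89 in non-stem epithelia, and was 4.54-fold higher (2.18 ± 0.21, adjusted p = 0.0017). Dst, whose epithelial product links hemidesmosomes to keratin, gave -0.84 and -0.90 against -2.36 and -1.83, a rise of 1.23 ± 0.22 (adjusted p = 0.012, and 0.058 without non-stem replicate 1). A second Dst probe, designed on another transcript, was measured above background in stem cells only. Plec, encoding plectin, the other keratin linker, gave 5.49 and 5.68 against 4.63 and 4.74 and rose by 0.90 ± 0.16 (adjusted p = 0.012). The call of Plec was lost without either non-stem array (adjusted p = 0.082 and 0.077) and with normexp (0.42, adjusted p = 0.071).

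Cd151, a tetraspanin that binds laminin receptors, gave 4.53 and 4.57 against 4.21 and 4.14 and did not pass (adjusted p = 0.11). It was called higher with quantile normalization (limma adjusted p = 0.047), the percentile over detected probes (0.038) and the intensity trend (0.025). With normexp Cd151 changed sign (-0.063). Col7a1, the collagen of the anchoring fibrils beneath hemidesmosomes, ran the other way, with 3.19 and 3.07 in stem cells against 4.43 and 4.06 in non-stem epithelia. It fell by 1.11 ± 0.19 (adjusted p = 0.011, and 0.065 without non-stem replicate 1).

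Set side by side, tested matrix chains had a median log2 difference of 1.17 and tested integrin chains one of 0.28, against -0.01 over the 17306 genes tested. With bounds in place of the values of Itga1, Nid1 and Col4a4, these medians were the same. Over all members with no filter they were 1.06 and 0.30, against 0.43 over all genes, so the integrin median lay below that of all genes there. The 7 members above background on no array had differences from -0.25 (Lama2) to 1.03 (Itga2), which show no measured change. Among members above background on all 4 arrays the medians were 1.17 over 13 matrix chains and 0.33 over 9 integrin chains, against 0.03 over all such genes. The matrix median exceeded the integrin median by 0.56 to 1.18 over the settings tried, and the integrin median itself was -0.015 with normexp. With normexp the 16 rises shrank to between 0.42 and 1.45, and 14 of them passed. The arrays of the groups did not overlap for 29 of the 32 tested members, where 71.0% of all genes tested did not overlap.

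**Figure D3:**
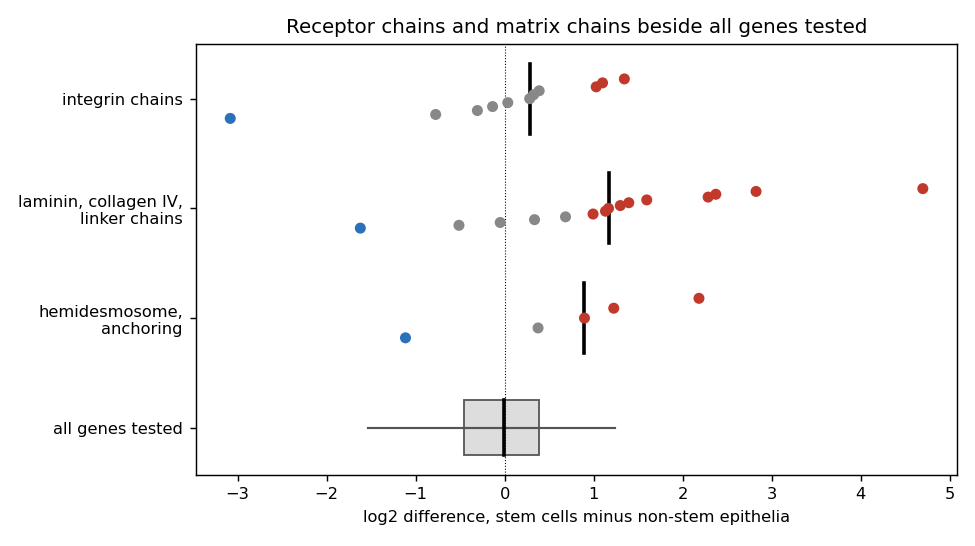
Each point is a tested member at its log2 difference (horizontal axis), red or blue where it passed the threshold, with a black bar at the median of each role, and the lower box spans the quartiles of all 17306 genes tested with a line from the 5th to the 95th percentile (-1.53 to 1.25). The matrix chains centre on 1.17 and the integrin chains on 0.28.

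Ligands and receptors can be paired by what binds what. For the hemidesmosome, the laminin chains Lama3 and Lamb3, the receptor chain Itgb4 and the plaque genes Col17a1, Dst and Plec were higher, Itga6 and Cd151 did not pass, and Col7a1 of the anchoring fibrils was lower. For type IV collagen, Col4a1, Col4a5 and Col4a6 were higher (Col4a6 by its brighter probe), and Col4a2 and Col4a4 did not pass. Its receptor chain Itga1 was lower and Itga2 was well above background on none of the arrays. For the laminins of Lamc1, the chains Lamb1 and Lamc1 were higher, Lama4 was lower, and Lama5, Lamb2 and the receptor genes Itga3, Itgb1 and Dag1 did not pass.

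Several members had more than 1 probe. For 15 members there were 17 further probes, 11 of them below the detection rule. Of the 6 that met it, 3 had the sign of the brightest probe (Cd151, Dst and Itga1) and 3 had the opposite sign (Col4a6, Itgav and Itgb1). The further probes of Dst and Itga1 were measured in 1 group only, so the detection rule favoured their sign. Which transcripts each probe detects was not tested.

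**Figure D4:**
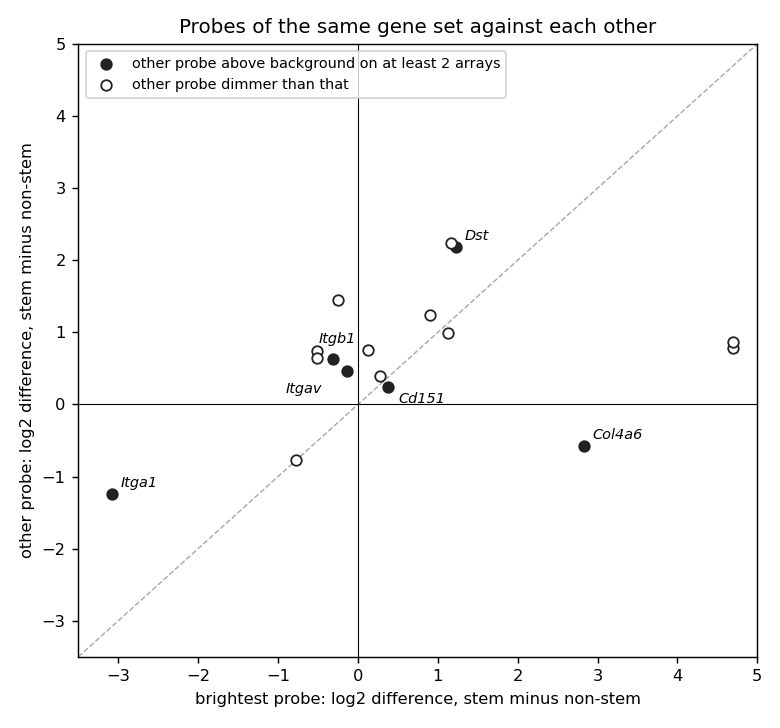
For members with several probes, the log2 difference of each further probe (vertical axis) is set against that of the brightest probe (horizontal axis), with filled points for further probes above background on at least 2 arrays and the dashed line for equal values. Col4a6, Itgb1 and Itgav fall in quadrants of opposite sign, and the further probes of Nid1, the open points at the far right, were above background on no array, so their positions show no measured difference.

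Other genes of the same systems were examined as lists. Of 20 other basement membrane genes, 8 were higher, 3 did not pass and 9 were not above background on any array, with a median of 1.11 over the 11 tested. Fbln1, a fibulin, was at least 5.96-fold higher, Fbln2 rose by 3.15 ± 0.20, and Ecm1 by 1.45 ± 0.15. Of 11 other integrin chains, 3 were tested and 1 rose, Itgam, a chain of white blood cells, by 0.86 ± 0.19. The call of Itgam was lost under each of the settings named next. No other integrin chain was called higher without non-stem replicate 1, without non-stem replicate 2, with no filter, or with the mean or the least changed of a gene's probes.

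Of 16 genes for collagen folding and crosslinking, 11 were tested. Of these, 1 was higher, 3 were lower and 7 did not pass, where 14.2% of all genes tested were called higher and 16.8% lower. Serpinh1, the collagen chaperone, rose by 1.76 ± 0.16, while P4hb, the protein disulfide isomerase that is also a subunit of prolyl hydroxylase, fell by 2.04 ± 0.18. P4ha1, its catalytic subunit, fell by 1.17 ± 0.17, and Plod1, a lysyl hydroxylase, was at least 1.95-fold lower. Of 24 tested focal adhesion genes, 6 were higher and 3 lower, with a median of 0.12, and with normexp the counts were 4 and 8 and the median -0.089. The counts called in both lists lie near the 31.0% of all genes tested, and are not read as a result about either list. The 3 lower genes, named after their values were seen, were Itgb1bp1, Tns1 and Vasp. Parva, an actin-binding partner of integrin-linked kinase, rose by 1.96 ± 0.20, Flna by 1.28 ± 0.16, the kinase gene Src by 1.27 ± 0.19 and the adaptor gene Nedd9 by 0.90 ± 0.15. Of 9 tested matrix proteases and inhibitors, 6 were higher, and 1, Plaur, the urokinase receptor gene, named after its value was seen, was at least 5.25-fold lower. Timp3, a matrix-bound protease inhibitor, rose by 2.45 ± 0.16, Htra1 by 2.34 ± 0.18, Mmp11 by 2.87 ± 0.23 and Bmp1, which processes laminin and collagen chains, by 1.23 ± 0.15.

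Markers of other cells that make basement membrane were set beside these results. Of 9 endothelial markers, 2 rose and 1 fell, and their summed level was 21.3 to 21.6 in stem cells and 25 to 26.6 in non-stem epithelia, in multiples of the 75th percentile. Of these markers 5 were tested. Cldn5 rose by 2.02 ± 0.50, Egfl7 rose by 1.75 ± 0.27 and Vwf fell by 2.86 ± 0.28. From Pecam1, Kdr and Tek, 2 were tested and did not pass. Cdh5, Tie1 and Emcn were well above background on none of the arrays. Of 7 fibroblast markers, 4 were not above background on any array, Col1a1, Lum, Pdgfra and Thy1, while Dcn rose by 2.14 ± 0.16. The other tested fibroblast marker, Col1a2, had a difference of -0.49 ± 0.17 that did not pass (adjusted p = 0.076), and the sum was 22 to 23.7 against 9.25 to 9.97. Of 5 pericyte markers, Rgs5, Pdgfrb, Cspg4 and Des were above background on no array (sum 5.92 to 6.53 against 4.25 to 4.50). Schwann cell markers summed to 13.1 to 13.9 against 23.2 to 26.4, and S100b was above background on no array. White cell and platelet markers summed to 6.15 to 8.17 against 6.60 to 7.29, with Ptprc above background on none.

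Basal and myoepithelial markers summed to 231 to 235 in stem cells and 113 to 117 in non-stem epithelia. Of 8 tested, 3 were higher and 5 did not pass, with a median of 0.30. Krt14 was up by 3.16 ± 0.16 and Krt5 by 3.15 ± 0.20, beside the rises of Lamb3, Itgb4 and Col17a1. With normexp 3 of these markers were higher and 2 lower, and their median was -0.14. Duct markers summed to 1650 to 1694 against 855 to 867, and acinar markers to 150 to 160 against 1916 to 2101. The part of these cell types in the changes of the 40 genes was not tested.

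**Figure D5:**
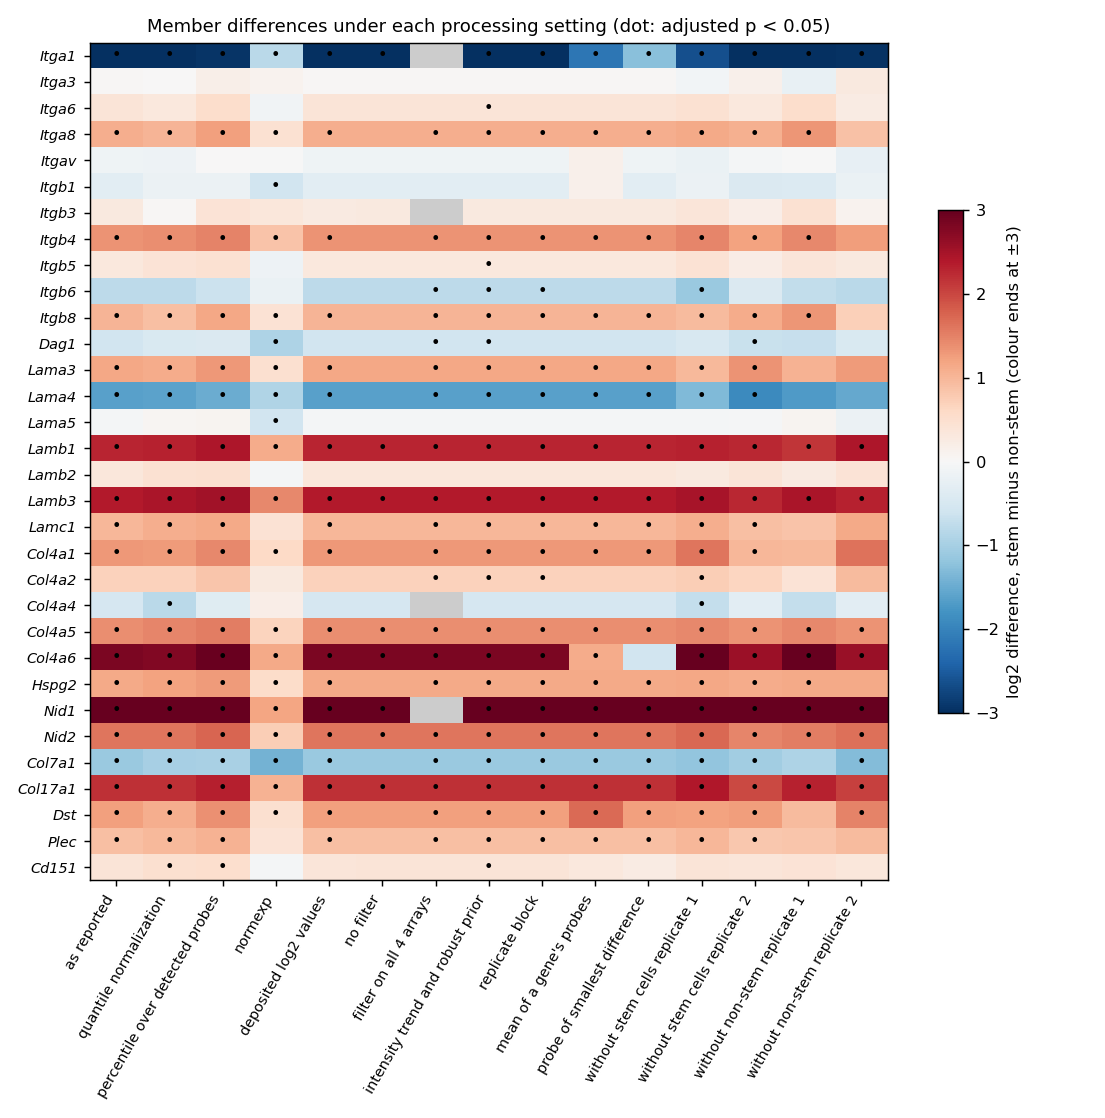
Colour shows the log2 difference of each tested member (rows) as reported and under each of 14 other settings (columns), grey marks a member not tested there and a dot an adjusted p under 0.05. Rows for Lamb1, Lamb3, Nid1, Nid2, Col4a5, Col17a1 and Itga1 hold a dot in every column where they were tested. Nid1 and Itga1 met the detection rule through their brighter group only, so the rule favoured their direction. The colours of the 16 rises are paler with normexp.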

How the data were processed

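RNA of 2 stem cell and 2 non-stem cell epithelia samples was labelled with Cy3 and read on one-colour Agilent arrays, per the labels. The deposited scanner files hold spot intensity, processed by Feature Extraction 10.7.3.1 with spatial and multiplicative detrending switched on, per the file headers, with probe positions on mm9. The submitters' processing notes name Feature Extraction 9.1, and this difference was not resolved. The authors' deposited log2 values correlated at 1.00 with the scanner values in their between-group differences, which settles direction and not scale. Their sizes were close as well, with matrix chain medians of 1.167 from the deposited values and 1.168 from the scanner values. Each probe's centring stays unknown (column medians -0.28, -0.55, -0.83 and -0.76).

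Spots marked as controls or outliers were removed, the 75th percentile of each array was subtracted from its log2 signals, and the spots of each probe were averaged. A gene, named as on the array, was represented by its brightest probe and tested where at least 2 arrays were well above background. Groups were compared with limma 3.58.1 in R 4.3.3 (lmFit, eBayes, two-sided, Benjamini-Hochberg over 17306 genes). No spot was saturated, and the number of arrays limits precision. A bound sets the brighter group's mean against the dimmer group's mean of, per array, the higher of the probe's signal and the lowest signal of probes well above background.

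Members and lists were chosen with earlier results of these data known. Every member is named, and up to 4 genes of smallest p past the threshold from each related list, with the exceptions marked in the text; some genes of these lists are not reported here. The acinar marker Bpifa2 had no probe of that name. Promoter windows are from RefSeq (29 of 40 members matched by symbol). The alternatives were quantile normalization, a percentile over detected probes, normexp (offset 50), the deposited values, no filter, all 4 arrays, the mean or the least changed of a gene's probes, an intensity trend, the replicate number as a block and leaving out each array.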

Additional observations from a re-analysis of the deposited data

Results flagged for a closer look

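Spike-in control spots, which the comparison of genes does not use, carried a signal that was higher on the stem cell arrays by a median of 2.25 on the log2 scale after the percentile shift, and of 1.33 before it. The rises of Nid1, Col4a6, Lamb3 and Lamb1 exceed 2.25 and those of the other 12 members called higher do not. Those of Lamb3 (2.37 ± 0.17) and Lamb1 (2.29 ± 0.17) lie within the range of the 7 spike-ins, 1.81 to 2.47. That of Col4a6 rests on its brighter probe. How the amount of labelled RNA bears on the members was not tested.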

How the results depend on the processing

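Of the 19 called members, 7 kept their call under every alternative in which they were tested. These were Lamb1, Lamb3, Nid1, Nid2, Col4a5, Col17a1 and Itga1. Nid1 and Itga1 were well above background in their brighter group only, so the detection rule favoured their direction. Neither was tested under the filter on all arrays, and both kept their call with no filter. Col4a6 reversed with the least changed probe (-0.58). Without the filter the calls of Col4a1, Col7a1, Dst, Hspg2, Itga8, Itgb4, Itgb8, Lama3, Lama4, Lamc1 and Plec were lost. The counts of 16 higher and 3 lower members were 7 and 1 with no filter, which adds dim probes to the fit, and 8 to 17 and 1 to 5 when each array was left out in turn. Members called higher numbered 14 with normexp and 20 with the intensity trend, and members called lower 6 and 5. The share of all genes tested that were called was 36.6% with normexp and 43.4% with the intensity trend. Of all genes, 2453 were called higher and 2907 lower, against 1596 and 4730 with normexp, 850 and 769 with no filter, and 700 to 2886 and 921 to 3563 when each array was left out. Each of those fits has 1 array in a group, which is assumed to vary like the other group. The share of calls that were higher was 45.8% over all genes and 84.2% over members, against 25.2% and 70.0% with normexp. It was 59.4% and 85.0% when the percentile was taken over detected probes, which moved the median of all genes by 0.14. With no filter that median moved by 0.44. With normexp 14 of the 16 rises and all 3 falls kept their call, and the rises ranged from 0.42 to 1.45.

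The median of the integrin chains was 0.033 with quantile normalization, 0.42 with the percentile over detected probes, -0.015 with normexp, 0.33 over members on all 4 arrays and 0.19 to 0.37 when each array was left out. That of the matrix chains was 0.55 with normexp. Members that did not pass also changed sign. With normexp, Cd151 was at -0.063, Col4a4 at 0.19, Itga6 at -0.10, Itgb5 at -0.14 and Lamb2 at -0.058. Itga3 ranged from -0.23 to 0.30 and Lama5 from -0.18 to 0.076 when each array was left out. Lama5 was at 0.049 with quantile normalization and 0.090 with the percentile over detected probes. Itgav was at 0.0044 with the percentile over detected probes and 0.16 with the mean of its probes, and Itgb1 at 0.16 with that mean. The cause of these moves was not tested.

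The replicate numbers of the titles share only a number between groups, and the deviations of same-numbered arrays correlated at -0.10. With the replicate number as a block, 17 members were higher and 4 lower, with Col4a2 and Itgb6 added, and 2376 and 2964 genes in all. Signal over background limits what can be said of the 8 members not tested.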
